A study of Mus musculus with 96 samples.

Results

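The stretch described here is the start of mouse chromosome 5, where the genes Cdk6, Abcb1a and Abcb1b lie at raised copy number in the pancreatic cancer line KPC1199EGFP. It is made up of the 19 bins of chromosome 5 that begin before position 14159645 in the build mm9, out of 4906 bins in all and 291 on this chromosome. These bins were picked because their ratios were high in the same table, so their high level is given as a description and was not tested. The members are the bin that holds the start of Cdk6 (bin 1, chr5:1-3669774) and the bin that holds the starts of both Abcb1a and Abcb1b (bin 11, chr5:8483217-9016665). Since both Abcb1 genes start in 1 bin, they have a common value and are named together below.

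The data were low-resolution whole-genome profiles of 94 single nuclei and 2 bulk libraries. KPC1199EGFP is a tumour line on a C57BL\6 strain background that expresses EGFP, a green fluorescent protein. All libraries came from adherent cells of passage 9 that received no treatment, so every group has the same line, reporter and culture history. Nuclei were released in a buffer with DAPI, a stain for DNA, and sorted by DNA content into a 2N gate (47 nuclei), a 2N+ gate (35 nuclei) and a 4N gate (12 nuclei), and the 2N and 2N+ gates each also gave 1 bulk library. As 1 culture stands behind all of them, a gate is 1 sample of many nuclei. The SDs below are the spread between nuclei, the gates are set side by side without a test, and the 95% intervals of shares are exact Clopper-Pearson intervals for counting error alone. Genomic DNA does not show a cell type, so the label of the line could not be checked against markers.

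Cdk6 is a kinase that, bound to a D-type cyclin, phosphorylates the retinoblastoma protein and lets a cell pass from G1 into S phase. Abcb1a and Abcb1b code for the P-glycoproteins of the mouse, pumps in the cell membrane that export many drugs and other lipophilic compounds. Focal amplification means that a limited piece of a chromosome is present in more copies than the chromosome itself, either in the chromosome or outside it, and copy number profiles do not tell these forms apart.

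The values are ratios to the genome-wide level of each library, already averaged over segments by the authors, so read depth is unknown. Copies are this ratio times the multiplier that best brought the autosomes of a nucleus to whole numbers. A second scale, called the reference scale below, sets the median of chromosomes 4, 7, 9, 10 and 13 of the same nucleus to 2 copies and needs no multiplier.

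The 3 genes have separate starts, and the 250 bases before each start are shown because the start decides which bin stands for a gene. They are RefSeq sequences of GRCm38.p6, a different build from the bins, on the plus strand, at chr5:3343643-3343892 for Cdk6, chr5:8566841-8567090 for Abcb1a and chr5:8797897-8798146 for Abcb1b. Unlike the other windows, the Abcb1a window does not end near the position used to place the gene in its bin. Its bases may thus belong to another start of the gene, although the builds were not aligned. Capitals mark matches on either strand to the letters TATAAA of the TATA box, CCAAT of the CCAAT box, GGGCGG of the GC box and CACGTG of the E box.
Cdk6: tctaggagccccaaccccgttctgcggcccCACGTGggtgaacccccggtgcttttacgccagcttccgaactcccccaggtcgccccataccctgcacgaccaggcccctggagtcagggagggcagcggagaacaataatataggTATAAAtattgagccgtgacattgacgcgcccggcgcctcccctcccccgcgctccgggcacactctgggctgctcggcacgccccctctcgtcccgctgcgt
Abcb1a: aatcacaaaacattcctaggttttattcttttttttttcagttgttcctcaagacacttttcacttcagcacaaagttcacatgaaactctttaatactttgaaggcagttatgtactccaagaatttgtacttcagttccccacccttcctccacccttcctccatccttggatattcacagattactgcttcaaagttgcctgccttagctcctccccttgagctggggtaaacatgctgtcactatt
Abcb1b: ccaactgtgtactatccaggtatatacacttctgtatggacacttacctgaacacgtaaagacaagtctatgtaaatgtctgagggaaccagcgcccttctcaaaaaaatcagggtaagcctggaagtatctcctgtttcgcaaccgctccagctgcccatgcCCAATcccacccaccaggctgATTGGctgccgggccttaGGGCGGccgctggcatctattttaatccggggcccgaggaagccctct
The Cdk6 window held 1 match to TATAAA, 103 bases before the start, and 1 match to CACGTG. The Abcb1b window held 2 matches to CCAAT, which together with GGGCGG lay within 87 bases of the start, and the Abcb1a window held 0 matches to any of the 4 motifs. In 32851 RefSeq promoter windows of this length, TATAAA was found in 12.4%, CCAAT in 33.8%, GGGCGG in 32.7% and CACGTG in 6.02%. The windows also differed in base composition, with 66% G and C before Cdk6, 40.4% before Abcb1a and 52.8% before Abcb1b, against a median of 52.4% over all windows. Copy number does not bear on the use of these promoters, and no expression was analysed here.

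Nuclei of the 2N gate had about 9 copies of Cdk6 and about 6 of the Abcb1 pair, on a chromosome that was otherwise at 2 copies in most nuclei. The Cdk6 bin ranged from 6.39 copies in nucleus 12 over a median of 9.03 to 13.7 copies in nucleus 7 (SD 1.60, n = 47). The Abcb1 bin had a lowest value of 4.95, a median of 6.09 and a highest value of 9.32 copies (SD 1.03). The rest of chromosome 5, taken as the median of its other 272 bins, ran from 1.96 over a median of 2.03 to 2.96 copies. The lowest Cdk6 value of the gate was thus above the highest value of the rest, and both members lay at least 1 copy above the rest of their own chromosome in 47 of 47 nuclei (95% interval 92.5 to 100%). Over all autosomal bins, 0.41% of 4636 stood at least 1 copy above the median of their own chromosome in at least 90% of 2N nuclei, and the 19 bins called are the stretch itself, which had been chosen on these values.

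**Figure D1:**
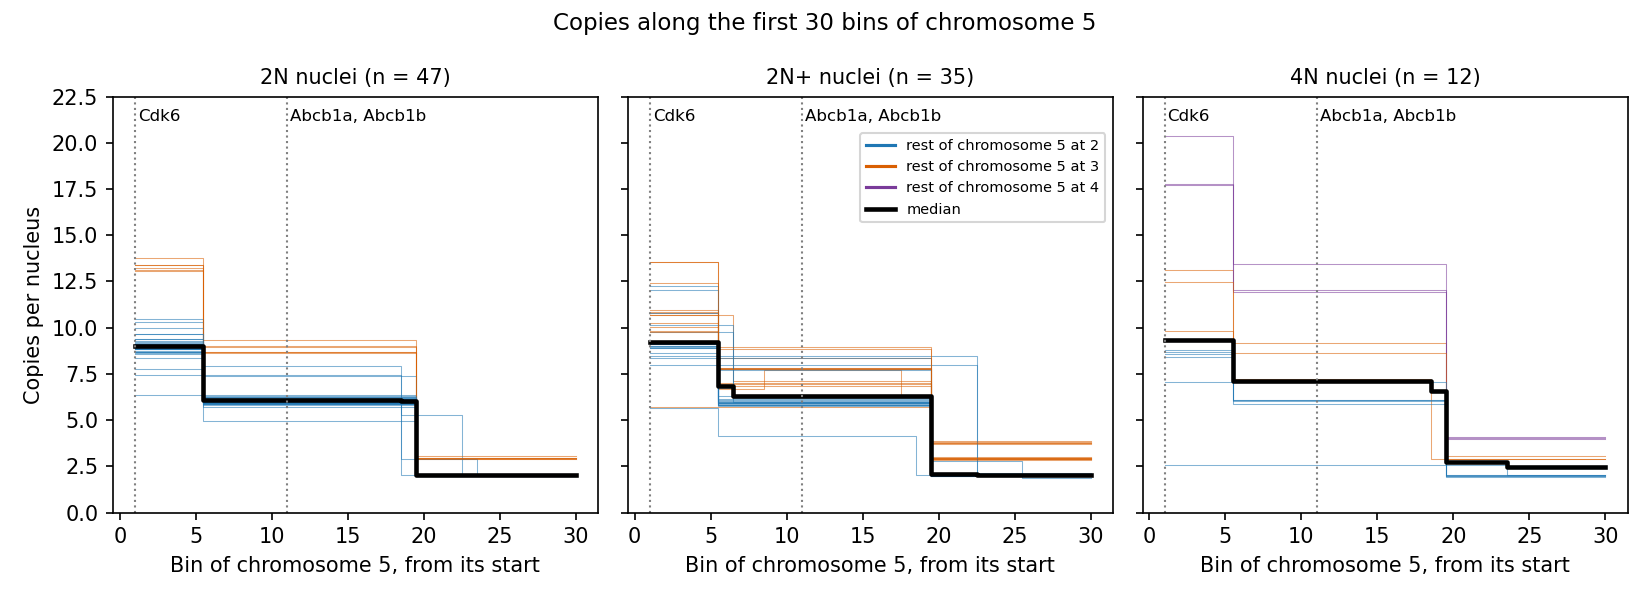
Copies along the first 30 bins of chromosome 5 (horizontal axis, bin number from the chromosome start; vertical axis, copies per nucleus) in the 3 gates. Thin lines are nuclei, coloured by the copies of the rest of chromosome 5, the black line is the median of the gate, and dotted lines mark the bins of Cdk6 and of Abcb1a and Abcb1b; in the 2N gate the median falls from 9.03 to 6.09 copies after bin 5 and to 2.03 after bin 19.

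In the 2N+ gate, sorted for more DNA, the Cdk6 bin ranged from 5.67 copies in nucleus 11 over a median of 9.23 to 13.5 copies in nucleus 7 (SD 1.73, n = 35). The Abcb1 bin had 4.17, 6.33 and 8.95 copies as its lowest, median and highest values (SD 1.14). Both members were at least 1 copy above the rest of chromosome 5 in 35 of 35 nuclei (95% interval 90 to 100%), and the share of autosomal bins called by the same rule was 0.41%.

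The 4N gate was the most uneven. Its Cdk6 bin was at 2.57 copies in nucleus 7 and 20.4 copies in nucleus 3, with a median of 9.31 (SD 5.18, n = 12), and its Abcb1 bin at 2.57, 7.14 and 13.4 copies (SD 3.16). The upper values come from nuclei 3, 4 and 5, which had multipliers of 4.65, 4.65 and 4.70 and in which the rest of chromosome 5 stood at 4 copies. On the reference scale the Cdk6 bin of the 4N gate had a median of 8.75 and a highest value of 11.9 (SD 2.22), beside 8.91 (SD 1.5) over 2N nuclei and 9.12 (SD 1.66) over 2N+ nuclei. The Abcb1 bin had medians of 6.0, 6.30 and 6.21 on that scale in the 2N, 2N+ and 4N gates. No test between gates was made.

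**Figure D2:**
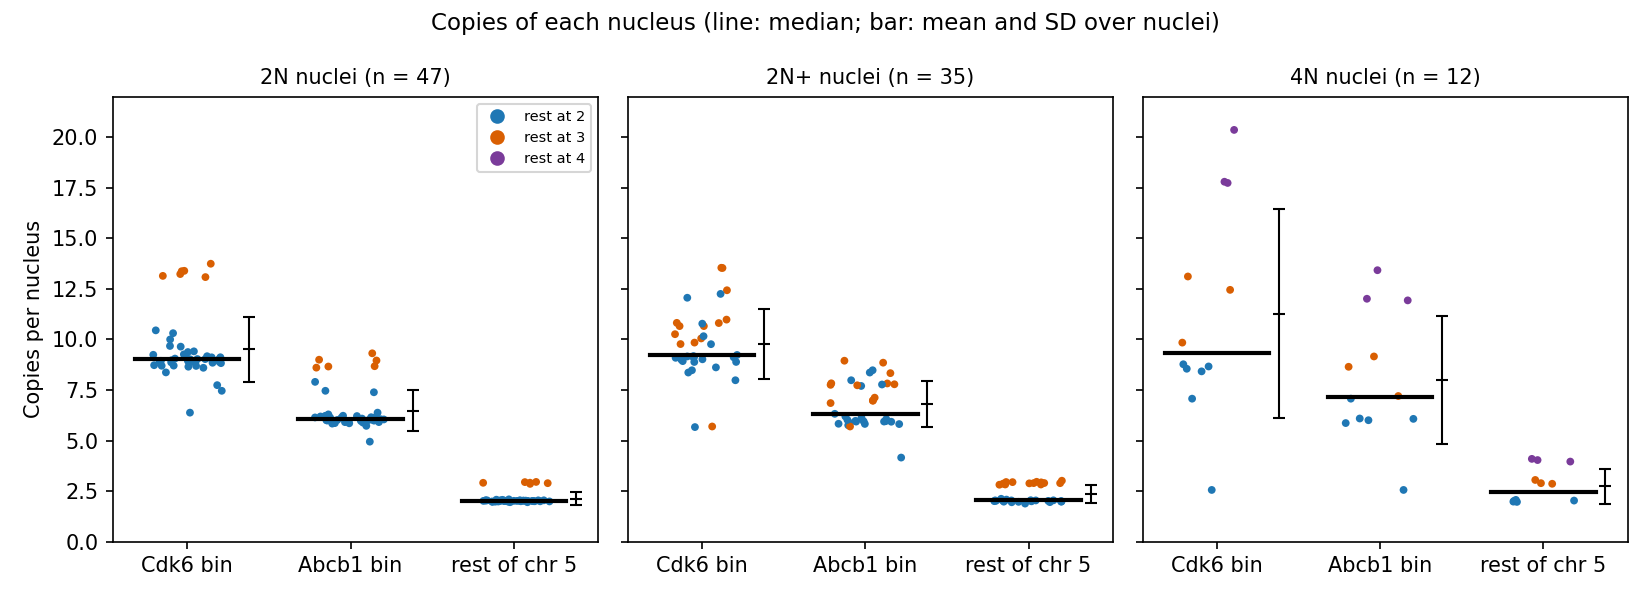
Copies of the Cdk6 bin, the bin of Abcb1a and Abcb1b, and the rest of chromosome 5 (vertical axis) in each nucleus of the 3 gates. Points are nuclei coloured by the copies of the rest of the chromosome, black lines are medians, and bars beside them give the mean and SD; in the 2N gate the 6 nuclei with 3 copies of the rest have the 6 highest Cdk6 values.

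The members were at least 1 copy above the rest of chromosome 5 in 93 of 94 nuclei, and 1 nucleus lay below that mark. In nucleus 7 of the 4N gate all 19 bins stood at 2.57 copies, beside 2.04 copies for the rest of chromosome 5, a difference of 0.526 copies, and on the reference scale Cdk6 was at 2.51 copies. Its level of 2.57 copies did not end with the stretch but went on to bin 23, at position 16436626. This nucleus had a multiplier of 2.45 and 70 breakpoints inside chromosomes, and 6 of 94 nuclei had more than 60. The part of segmentation quality in its low value was not tested. Its presence lowered the share of 4N nuclei with both members at least 1 copy above the rest to 11 of 12 (95% interval 61.5 to 99.8%), where 0.388% of autosomal bins passed the rule.

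The stretch had an inner step that put Cdk6 on a higher level than the Abcb1 pair. Bins 1 to 5, 5.72 Mb up to position 5715257, carried the Cdk6 level, and bins 6 to 19, the next 8.44 Mb up to position 14159645, carried the Abcb1 level. Copies changed by at least 0.5 between bins 5 and 6 in 45 of 47 2N nuclei (95% interval 85.5 to 99.5%), 28 of 35 2N+ nuclei (63.1 to 91.6%) and 10 of 12 4N nuclei (51.6 to 97.9%). A further 3 nuclei, all of the 2N+ gate, had the step 1 bin later, between bins 6 and 7. They were nuclei 16, 22 and 24, with 25, 91 and 87 breakpoints inside chromosomes. The part of segmentation in the later step was not tested. The bins have a median width of 486 kb, which limits how finely the step can be placed. Bin 1 is 3670 kb wide, as it takes in the end of the chromosome that has no sequence in mouse assemblies.

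In each gate, 0.0433% of 4617 boundaries between autosomal bins had a step of at least 0.5 copies in at least 80% of nuclei. These were 2 boundaries, both of chromosome 5: the inner step, and the end of the stretch between bins 19 and 20. Over all 94 nuclei the end was seen in 86 and the inner step in 83, and the next most frequent autosomal step, on chromosome 2 at position 75743671, in 53. The bins were chosen on the same profiles, so nothing further is read from these ranks.

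Cdk6 was at least 0.5 copies above the Abcb1 pair in 45 of 47, 31 of 35 and 10 of 12 nuclei of the 2N, 2N+ and 4N gates, and in 0 nuclei below it. Inside a nucleus, the ratio of the Cdk6 bin to the Abcb1 bin does not depend on any multiplier. Over 2N nuclei it ran from 1 over a median of 1.49 to 1.64 (SD 0.116), over 2N+ nuclei from 1 over 1.5 to 1.70 (SD 0.182), and over 4N nuclei from 1 over 1.43 to 1.52 (SD 0.179). The median ratio was thus close to 9 over 6 in the 2N and 2N+ gates.

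The remaining 8 of 94 nuclei had a common value for both members. They were nuclei 12 and 24 of the 2N gate, at 6.39 and 7.46 copies, and nuclei 10, 25 and 31 of the 2N+ gate, at 7.99, 8.37 and 8.48 copies. Nucleus 32 of the 2N+ gate stood at 5.70 copies with the rest of its chromosome 5 near 3, nucleus 9 of the 4N gate at 7.08 copies, and nucleus 7 of that gate at the 2.57 copies given above. In 6 of these nuclei the value thus lay between the 2N medians of the Abcb1 pair and of Cdk6, and in nuclei 32 and 7 it was below both. The number of breakpoints was 5 in each of nuclei 12 and 24 and 15, 32, 72 and 17 in nuclei 10, 25, 31 and 32. It was 70 in nucleus 7 and 112 in nucleus 9. Nucleus 8 of the 2N gate also had 5 breakpoints, the lowest number of the gate, and had separate levels of 9.64 and 6.30 copies. Whether segmentation decides that a nucleus has 1 level was not tested.

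The outer end of the stretch was sharp. The unbroken run of bins at least 1 copy above the rest of chromosome 5 ended after bin 19 in 44 of 47, 31 of 35 and 10 of 12 nuclei of the 3 gates. At this threshold of the rule, bin 19 (chr5:13637295-14159645) had medians of 6.04, 6.33 and 6.59 copies and bin 20 (chr5:14159646-14685148) medians of 2.03, 2.09 and 2.72 copies in the 2N, 2N+ and 4N gates. The run ended 1 bin earlier in 2, 1 and 1 nuclei. It ended after bin 22 in nucleus 15 of the 2N gate, where bins 19 and 20 stood at 5.28 copies, and in nuclei 10 and 31 of the 2N+ gate, at 7.99 and 8.48 copies. It went on in 2N+ nucleus 19 to bin 32, at the lower level described next.

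Past the sharp end, 5 nuclei of the 2N+ gate showed a lower shelf. In nuclei 8, 9, 15, 19 and 26, whose rest of chromosome 5 was near 3 copies, bin 20 stood at 3.71 to 3.88 copies, and values at least 0.5 copies above the rest went on to bin 31, 32 or 33, at most to position 21462837. These were 5 of the 13 nuclei of the gate with 3 copies of the rest. In the 2N and 4N gates, 0 of 6 and 0 of 3 nuclei with 3 copies of the rest had such a shelf. With 2 copies of the rest, nucleus 22 of the 2N+ gate and nucleus 24 of the 2N gate stood at 2.77 and 2.89 copies in bin 20, up to bins 25 and 23. Nucleus 7 of the 4N gate, also with 2 copies of the rest, stood at 2.57 copies in bin 20, up to bin 23. These nuclei were singled out after their values were seen, and no test was made.

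The copies of the members went with the copies of the rest of chromosome 5 in the 2N gate. In the 41 nuclei with 2 copies of the rest, Cdk6 had a lowest value of 6.39, a median of 8.97 and a highest value of 10.4 copies (SD 0.672), and the Abcb1 bin 4.95, 6.04 and 7.91 copies (SD 0.470). In the 6 nuclei with 3 copies, Cdk6 had 13.1, 13.3 and 13.7 copies (SD 0.236), and the Abcb1 bin 8.61, 8.82 and 9.32 copies (SD 0.273). Of these 6 nuclei, 5 also had chromosome 19 near 4 copies, with a Cdk6 median of 13.4, and 1 had it near 3, with 13.1. The 1 nucleus with 2 copies of the rest and chromosome 19 near 4 had 8.98 copies of Cdk6. Chromosome 15 stood at 2.86 to 3.07 copies in the 6 nuclei and at 2.00 to 2.96 copies in the 41. The part of chromosomes 15 and 19 was not tested. Nuclei with 2 and with 3 copies of the rest did not overlap in either member. How many bins of other chromosomes also separate these 2 sets was not counted.

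Both the ratio to the rest and the excess over it were set side by side for the 2N sets. In these, Cdk6 over the rest had a median of 4.43 (SD 0.346) with 2 copies of the rest and 4.58 (SD 0.082) with 3, and the Abcb1 bin over the rest 3.0 (SD 0.243) and 3.01 (SD 0.076). The excess of Cdk6 over the rest was 6.92 copies by its median in the first set and 10.4 in the second, and that of the Abcb1 bin 4.03 and 5.88 copies.

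In the 2N+ gate the same sets were compared. With 2 copies of the rest (22 nuclei), Cdk6 had 5.67, 9.10 and 12.2 copies as its lowest, median and highest values (SD 1.33), and with 3 copies (13 nuclei) 5.70, 10.7 and 13.5 copies (SD 1.97). The Abcb1 bin had a median of 5.97 copies (SD 1.03) with 2 copies of the rest and 7.76 copies (SD 0.879) with 3. The sets overlapped in both members. The median excess of Cdk6 over the rest was 7.06 copies (SD 1.32) and 7.72 copies (SD 1.94), and the median ratio to the rest 4.44 (SD 0.641) and 3.63 (SD 0.649). For the Abcb1 bin the median excess was 3.95 copies (SD 1.03) and 4.85 copies (SD 0.863), and the median ratio 2.94 (SD 0.52) and 2.67 (SD 0.291).

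Of the 13 nuclei, nuclei 5, 7 and 13 had excesses of 10.6, 10.6 and 9.54 copies of Cdk6, and nucleus 32 had 2.88. Nuclei 5 and 7 also had chromosome 19 near 4 copies, each with 13.5 copies of Cdk6. The 11 nuclei with chromosome 19 near 3 had a Cdk6 median of 10.7 and a highest value of 12.4. In the 4N gate, nucleus 11 had 3 copies of the rest, chromosome 19 near 4 and 9.84 copies of Cdk6. The 9 nuclei of this set besides nuclei 5, 7, 13 and 32 had excesses from 6.87 to 8.14 copies. In 2N+ nuclei with 2 copies of the rest the excess ran from 3.65 to 10.1 copies, a range that also takes in nucleus 13. Among these 9, the Abcb1 bin was at 7.74 to 7.83 copies in the 5 nuclei with the shelf and at 6.86 to 7.13 copies in the other 4. The difference between gates in how the members go with the rest was not tested, since 1 culture gave both gates.

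**Figure D3:**
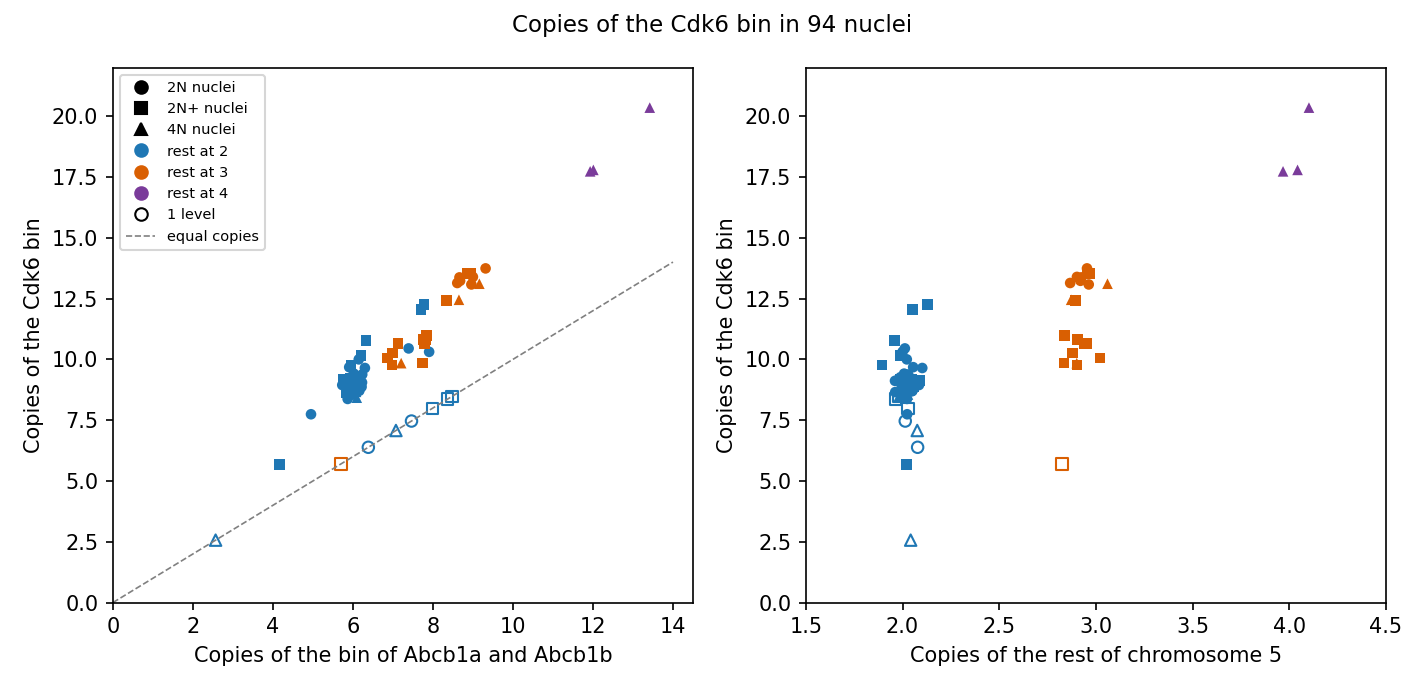
Copies of the Cdk6 bin (vertical axes) against copies of the bin of Abcb1a and Abcb1b (left) and of the rest of chromosome 5 (right), 1 point per nucleus, 94 nuclei in all. Symbols give the gate, colours the copies of the rest, and open symbols the 8 nuclei with 1 level, which lie on the dashed line of equal copies; the nuclei of the 2N gate with 3 copies of the rest stand at 13.1 to 13.7 copies of Cdk6.

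The highest and lowest values among the 2N+ nuclei with 2 copies of the rest were also seen on the scale without a multiplier. Nuclei 6 and 30 had 12.1 and 12.2 copies of Cdk6, and nucleus 11 had 5.67 copies of Cdk6 and 4.17 of the Abcb1 bin. On the reference scale these 3 nuclei had 11.8, 11.9 and 5.55 copies of Cdk6. Both scales multiply the same segmented ratio by 1 factor per nucleus, so they are not independent. Nucleus 30 had the highest residual from whole copies in its gate, 0.164. This residual was above 0.15 in 8 of 94 nuclei. Among them were nuclei 7 and 24 of the 2N gate and nuclei 22 and 31 of the 2N+ gate, all named above.

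Copies in the 4N gate depend on the multiplier, which lay between 2 and 3 in 8 of its 12 nuclei, as in all 2N and 2N+ nuclei. A doubled genome without odd copy numbers has the same ratios as an undoubled one, so the copies of these 8 nuclei may be low by a factor of 2. With the fitted multipliers, Cdk6 had 17.7, 17.8 and 20.4 copies in the 3 nuclei with 4 copies of the rest and 9.84, 12.5 and 13.1 copies in the 3 with 3 copies. On the reference scale the first 3 nuclei had 8.74, 8.85 and 10.1 copies of Cdk6, with the rest between 1.96 and 2.03. Nucleus 2, with 13.1 copies, had a multiplier of 3.45 and a residual from whole copies of 0.206, and on the reference scale 9.01 copies of Cdk6 and 2.10 of the rest. In the 6 nuclei with 2 copies of the rest it had a lowest value of 2.57, a median of 8.49 and a highest value of 8.78 copies. Over the whole gate, Cdk6 over the rest had a median of 4.30 (SD 0.959) and the Abcb1 bin over the rest 3.0 (SD 0.552). The same medians in the 2N gate were 4.44 (SD 0.327) and 3.0 (SD 0.228).

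By the copies of the rest of chromosome 5, nuclei fall into separate sets near 2, 3 and 4, although Cdk6 copies of these sets overlap in the 2N+ gate, so correlations are given only within the nuclei with 2 copies of the rest. There, Cdk6 and Abcb1 copies had a Pearson's r of 0.254 over 2N nuclei (n = 41) and 0.391 over 2N+ nuclei (n = 22), and Cdk6 and the rest of chromosome 5 had -0.164 and 0.195. The latter pair was -0.46 and 0.323 on the reference scale, and -0.259 and 0.0161 without the 2 nuclei farthest from the median of the rest. Among the nuclei whose members had separate levels, r of Cdk6 with Abcb1 was 0.767 (n = 39) and 0.964 (n = 19). The points share the multiplier of their nucleus and the authors' segmentation, and they come from 1 culture, so these are descriptions. Without the 2 nuclei farthest from the median Abcb1 value, r was 0.391 and 0.688 over all nuclei with 2 copies of the rest, and 0.577 and 0.899 over those with separate levels.

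Likeness to Cdk6 was also looked for on the other chromosomes. The bin with the highest absolute r over all 47 nuclei of the 2N gate was taken from each other chromosome, and the 3 ranked first lay on chromosome 2 (chr2:52818018-53327685), chromosome 11 (chr11:62919628-63383140) and chromosome 8 (chr8:7922370-8404786). Within the 41 nuclei with 2 copies of the rest of chromosome 5, their r with Cdk6 was 0.03, -0.08 and 0.17. Among all bins taken in this way, r within these nuclei was largest in size on chromosome 17 (chr17:31639582-32109133), at -0.576. The highest positive value was 0.314, on chromosome 13. Copies on the reference scale were used for these r, unlike the main values of r given before.

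No other autosome had its first bins at such a level by the median over nuclei, when each was measured in the same way. The first 5 bins over the rest of the same chromosome had a median of 4.40 on chromosome 5 over all 94 nuclei (range 1.26 to 5.88). On the 18 other autosomes this median lay between 1 and 1.08, with the highest on chromosome 16. In the 2N gate alone, chromosome 16 reached 1.42 and the lowest median was 0.744. On chromosome 1 the value differed widely between nuclei, although its median was close to 1. It ran from 1 to 2.86 over 2N nuclei (SD 0.633), to 2.28 over 2N+ nuclei (SD 0.31) and to 2.85 over 4N nuclei (SD 0.558). The nuclei with a raised start of chromosome 1 were not counted. With no normal mouse DNA among the libraries analysed here, the share of the signal that comes from read mapping at this chromosome end was not tested.

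**Figure D4:**
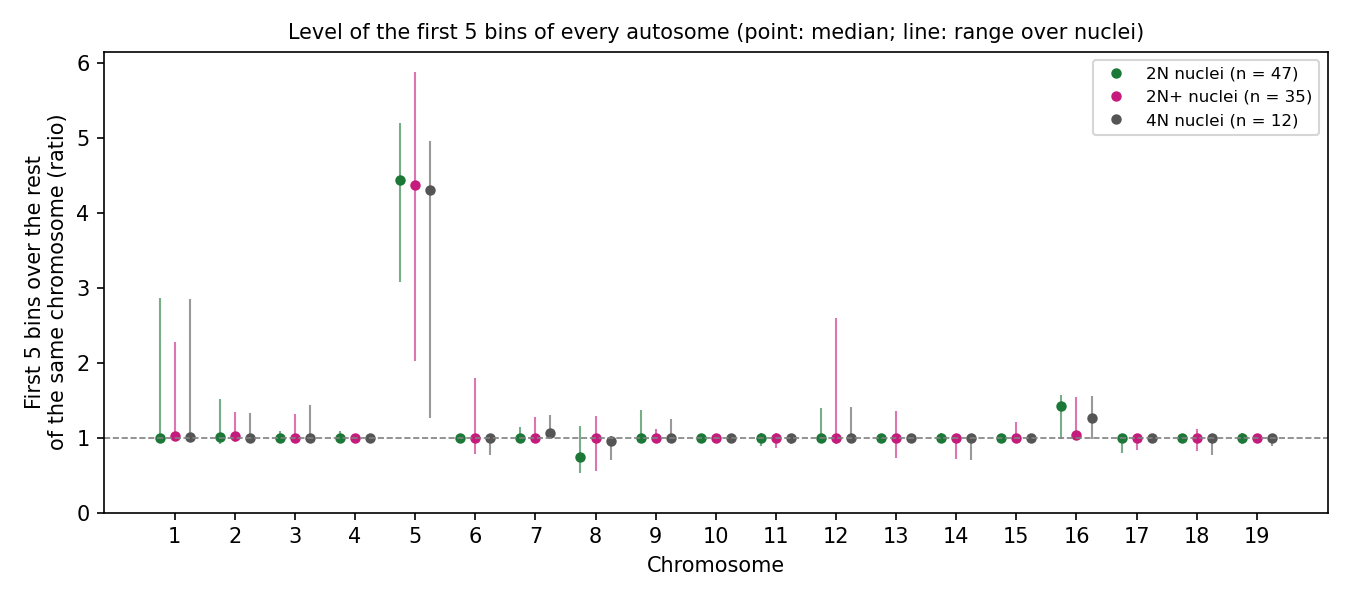
Ratio of the first 5 bins to the rest of the same chromosome (vertical axis) for the 19 autosomes (horizontal axis) in the 3 gates. Points are medians and vertical lines the range over nuclei, and the dashed line marks a ratio of 1; the medians of chromosome 5 are 4.44 (2N), 4.37 (2N+) and 4.30 (4N).

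The bulk libraries gave the members the level of the average nucleus. As deposited ratios, Cdk6 was at 3.91 in the 2N bulk library and at a mean of 3.99 over 2N nuclei (SD 0.541, n = 47), and the Abcb1 bin at 2.76 against 2.72 (SD 0.337). In the 2N+ gate Cdk6 was at 4.03 in bulk and 3.87 over nuclei (SD 0.658, n = 35), and the Abcb1 bin at 2.73 and 2.71 (SD 0.460). Each bulk value lay within 1 SD of the nuclei of its gate. The bulk profiles also held the inner step, with Cdk6 over Abcb1 at 1.41 in the 2N and 1.48 in the 2N+ library, and their high run ended after bin 18 and bin 19. With 1 bulk library per gate these differences have no error of their own.

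The members were not the only genes of the stretch. In the gene order of GRCm38.p6, 32 protein-coding genes lie between Cdk6 and Abcb1b, Abcb1a among them, and 0 miRNA genes. They include Fzd1, a Wnt receptor, Cyp51, an enzyme of cholesterol synthesis, and Steap1, Steap2 and Steap4, which belong to a family of metalloreductases. Cdk14, a kinase related to Cdk6, and Dbf4, the activating subunit of the Cdc7 kinase that starts DNA replication, also lie between them. Abcb4, which exports phosphatidylcholine into bile, is the next protein-coding gene after Abcb1b. These genes were placed by order only, so no bin value is given for any of them.

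Genes that act with the members lie on other chromosomes, whose medians were near 2 or 3 copies. Of 17 genes of the G1/S transition, 10 lie on chromosomes with a median of 2 copies and 7 on chromosomes with a median of 3 in each of the 3 gates. Cdk4, the closest relative of Cdk6, is on chromosome 10 with a median of 2.03 copies over 2N nuclei (SD 0.026), Ccnd1 on chromosome 7 with 2.03 (SD 0.048), and Ccnd3 on chromosome 17 with 3.04 (SD 0.263). The inhibitor genes Cdkn2a and Cdkn2b are on chromosome 4, whose median was 2.02 copies (SD 0.032). These are medians of whole chromosomes, which would not show a deletion or amplification limited to the gene or to a longer part of its chromosome. Chromosome 2, with E2f1 and Rbl1, had a step at position 75743671 in 53 of 94 nuclei. On chromosome 8, with Rbl2, 35 of 94 had one at position 43640396. The levels of the genes themselves were thus not measured.

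Of 7 transporter genes that, like the Abcb1 pair, export drugs, conjugates or lipids, 6 are on chromosomes other than 5. In the 2N and 4N gates 2 of them are on chromosomes with a median of 2 copies and 4 on chromosomes with a median of 3, and in the 2N+ gate 1 and 5. The count changed by Abcc1, on chromosome 16, whose median was 2.04 copies over 2N nuclei (SD 0.273) and 2.90 over 2N+ nuclei (SD 0.635). The first 5 bins of chromosome 16 over its rest had medians of 1.42 over 2N nuclei and 1.03 over 2N+ nuclei. As Abcc1 was not placed in a bin, its own level was not compared between gates. Abcg2 was on chromosome 6 with 3.02 copies (SD 0.141) over 2N nuclei and 3.03 (SD 0.318) over 2N+ nuclei. The remaining transporter gene, Abcb4, is on chromosome 5 next to Abcb1b in gene order, and as it was not placed in a bin, no level is given for it.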

How the data were processed

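The authors deposited 1 table of 4906 bins and 96 libraries of linear ratios, equal over long runs of bins (listed as "other" in the file check, because separators are mixed). The submitters' processing notes name Bowtie 1.0 and the build mm9. How bins, GC correction and segments were made is not given in the sources used here. Means of the columns ran from 0.994 to 1.09. Lines were split at white space and libraries assigned by title, with 0 identical pairs. Each multiplier, between 1.5 and 6 on a grid of 0.05, gave the smallest mean squared difference between autosomal copies and the nearest integers. To choose bins for the fit, the ratios of each library were divided by the median of its autosomal bins. Over all chromosomes, 4898 bins had a median of 0.25 to 4 on this scale over nuclei, and the fit used the autosomal bins among them. This leaves out the 5 bins of the Cdk6 level. A bin ends where the next begins. Gene starts in mm9 came with the choice of genes and were not checked against an mm9 annotation. The members and lists were chosen with earlier results of these data known. Named items are the members, the bins of the stretch, the highest and lowest nuclei of each gate, the 3 most similar bins of other chromosomes, and genes of the lists. Other genes between the members, other nuclei named, nuclei with 1 level and the shelf past bin 19 were picked with their values in view. So were the similar bins of chromosomes 13 and 17. Simulated data were used to test the functions. Alternatives were other multipliers, the reference scale, other thresholds and subsets of nuclei. No p-value was computed. The software was Python 3.11.15 with matplotlib 3.10.9, scipy 1.17.1, pandas 2.3.3 and numpy 2.4.6.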

Additional observations from a re-analysis of the deposited data

How the results depend on the processing

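Alternatives gave 119 values for 27 results, and 116 of them stayed inside the spread between nuclei, 1.5 times for counts, or the width of a Fisher interval for r. The other 3 were r of Cdk6 with Abcb1 among nuclei with 2 copies of the rest. With separate levels only, r was 0.767 instead of 0.254 over 2N nuclei and 0.964 instead of 0.391 over 2N+ nuclei. This choice was made after seeing the data. It leaves out nuclei by the relation of the very values that r compares, so nothing is read from the change. Over 4N nuclei r was 0.858 (n = 6) and Spearman's rho -0.0857. This r rests on nucleus 7, and alternatives that left 4 nuclei are not given. The bounds are wide in the 4N gate, so staying inside them says little there. Without nuclei of more than 60 breakpoints, its Cdk6 median was 12.5 copies instead of 9.31 (SD 5.18). Its r of Cdk6 with the rest was 0.238 on the reference scale instead of -0.485 (n = 6). Both of these changes were counted as inside. No paired analysis was possible because replicate numbers are names of nuclei from 1 culture and the design has no test. Ratios carry no depth, so counting error per bin is unknown and changes shorter than a segment cannot be seen.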
